A study of Mus musculus with 29 samples.

Results

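The voltage-gated sodium and calcium channel genes and the potassium channel genes are described here in the embryonic mouse cortex. They were chosen by their mouse symbol alone: genes of the Kcn families that end in a number (potassium channel pore and partner subunits, without Kcnj13), the sodium channel alpha and beta subunits (Scn) and the pore subunits of voltage-gated calcium channels (Cacna1). The rule found 115 genes among 50233 genes in the RNA tables, in 23 subfamilies, of which 14 each were Kcnj and Kcnk genes, 10 were Cacna1 genes and 10 were Scn alpha genes. Past the filter on low counts were 96 of them in the untreated experiment and 97 in the treated one.

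Voltage-gated sodium channels carry the rising phase of the action potential, potassium channels end it and set the resting potential, and voltage-gated calcium channels couple depolarization to transmitter release and gene expression. Neurons take up these genes as they mature, while radial glia and astrocytes use mainly inward rectifier and 2-pore potassium channels for potassium buffering. Trimethylation of histone H3 at lysine 27 (H3K27me3), which Polycomb complexes place, is known to mark silent developmental and cell type genes.

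The study deleted BAF155 (gene Smarcc1) and BAF170 (gene Smarcc2), the scaffold subunits of the BAF chromatin remodeling complexes, in late cortical progenitors, and asked how expression and H3K27me3 change in this double conditional knockout (dcKO). All libraries came from E17.5 mouse pallium on a C57BL/6J background. The dcKO carried floxed Baf155 and Baf170 alleles and hGFAP-Cre, which acts first in the medial pallium and later in the dorsal and lateral pallium, so that cells born before Cre acts and cells outside the lineage keep both genes. The untreated RNA experiment had 4 control and 3 dcKO libraries. By the published methods, controls were heterozygous for both floxed alleles and carried Cre. The treated RNA experiment had 4 wild-type (WT) vehicle, 4 dcKO vehicle and 4 dcKO libraries from litters whose dams received the Wnt inhibitor ICG-001 daily, with DMSO as vehicle. H3K27me3 was profiled in 4 control and 4 dcKO pallia, with 1 input library per group. The genotype label of the untreated and ChIP samples read dcKO throughout, so these groups rest on the letters in the sample titles.

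The deleted genes did not follow the labels in every library. Smarcc1 lay at 247, 264, 269 and 248 CPM (each gene's share of its library's counts, in millionths) in the controls and at 128 and 135 CPM in dcKO replicates 3 and 4, but at 245 CPM in the library labelled dcKO replicate 2. Under vehicle it lay at 245 to 299 CPM in WT and at 136, 133 and 138 CPM in dcKO replicates 1, 3 and 4, but at 242 CPM in the library labelled dcKO vehicle replicate 2. In the libraries labelled dcKO with Wnt inhibitor it was 214, 252, 140 and 173 CPM, and Smarcc2 was 644, 695, 416 and 586 CPM against 664 to 834 CPM in WT vehicle. Each RNA comparison is therefore given with all libraries and without those labelled dcKO replicate 2, a choice made after the values were seen. Libraries also resembled each other across the experiments by number: over 15220 genes, the deviation from the group mean of each of the 7 untreated libraries correlated most with the vehicle library of its own genotype and number (r = 0.204 to 0.805, across genes, against -0.346 to 0.5 for the best other library). Whether these libraries came from the same embryos was not stated, and the 2 experiments are not treated here as independent of each other. Total counts were 11946658 to 28391046 per untreated library and 12514443 to 26600594 per treated library. The 2 tables list different gene sets (38355 and 48709 genes) and give several channel genes different levels (Kcnq3 33.8 ± 4.63 CPM in control and 193 ± 44.3 CPM in WT vehicle, SD, n = 4 each), so levels are compared within an experiment only.

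A few promoter stretches are printed because the results below turn on these genes: Kcnj4, an inward rectifier with one of the longest H3K27me3 regions, Kcng3 and Kcnj10, which moved in opposite directions with the genotype, and Scn2a, which had no H3K27me3 region. Each is the 250 bases before a RefSeq start (GRCm38.p6), 5′ to 3′ on the gene's strand, with every CG dinucleotide in capitals. Of all 32851 RefSeq promoter windows of that length, 92.1% hold at least 1 CG, with a median of 6, and 83 of the 115 genes matched a window. The 4 stretches do not stand for these 83 genes. Their median CG count was 7 with an H3K27me3 peak at a start in all 8 libraries, 11 with 2 to 7 libraries and 5.25 with no region at a start. The ranges were 0 to 35, 1 to 41 and 0 to 43. Scn2a averaged 5.5 CG over its windows, more than in the one printed. The Kcnj4 stretch (chr15:79505242-79505491, minus strand, 35 CG) overlapped a peak in 4 control and 3 dcKO libraries, the Kcng3 stretch (chr17:83631896-83632145, minus strand, 41 CG) in 4 and 3, the Kcnj10 stretch (chr1:172340960-172341209, plus strand, 17 CG) in 1 and 1, and the Scn2a stretch (chr2:65620519-65620768, plus strand, 2 CG) in 0 and 0.
Kcnj4: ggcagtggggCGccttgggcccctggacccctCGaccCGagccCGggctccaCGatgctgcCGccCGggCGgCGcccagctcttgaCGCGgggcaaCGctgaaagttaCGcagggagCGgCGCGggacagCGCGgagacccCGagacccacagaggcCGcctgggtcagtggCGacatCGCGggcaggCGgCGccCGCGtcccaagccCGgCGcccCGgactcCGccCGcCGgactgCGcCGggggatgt
Kcng3: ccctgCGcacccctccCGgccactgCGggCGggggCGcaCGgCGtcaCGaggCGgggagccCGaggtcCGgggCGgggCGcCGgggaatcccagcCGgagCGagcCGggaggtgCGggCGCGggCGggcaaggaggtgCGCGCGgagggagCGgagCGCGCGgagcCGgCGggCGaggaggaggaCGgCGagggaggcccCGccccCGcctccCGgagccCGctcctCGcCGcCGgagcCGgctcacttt
Kcnj10: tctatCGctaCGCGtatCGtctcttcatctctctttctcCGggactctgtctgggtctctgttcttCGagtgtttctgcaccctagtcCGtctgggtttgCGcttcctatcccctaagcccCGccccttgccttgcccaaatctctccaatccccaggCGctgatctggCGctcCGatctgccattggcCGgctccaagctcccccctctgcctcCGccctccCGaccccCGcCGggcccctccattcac
Scn2a: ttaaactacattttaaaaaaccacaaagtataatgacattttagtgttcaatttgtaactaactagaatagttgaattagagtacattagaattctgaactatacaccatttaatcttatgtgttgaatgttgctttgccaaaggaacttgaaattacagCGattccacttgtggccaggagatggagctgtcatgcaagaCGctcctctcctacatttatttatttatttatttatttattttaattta

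In WT vehicle cortex the beta subunit Scn3b had the highest level per length of all 115 genes, at 58.1 ± 2.65 CPM per kb of exon (SD, n = 4). Other high levels were those of the T-type calcium channel Cacna1h (27.6 ± 6.17 CPM per kb) and the N-type calcium channel Cacna1b (19.6 ± 2.98). The order of Scn3b over Cacna1h exceeded their spread, while Cacna1h and Cacna1b differed by less than 2 SD of Cacna1h. The alpha subunit Scn3a, typical of the embryonic brain, stood at 14.3 ± 2.52 CPM per kb, Scn2a at 12.5 ± 1.8 and Scn8a at 8.17 ± 0.559, while Kcnq3, an M-current subunit, stood at 13.1 ± 3.01. Among the A-type channels Kcnd3 reached 11 ± 1.36 and Kcnd2 9.93 ± 1.33 CPM per kb, and their partners Kcnip3 and Kcnip2 reached 12.1 ± 1.8 and 11.1 ± 2.18. Kcnk2, a 2-pore potassium channel, led its subfamily at 12.1 ± 0.597 CPM per kb, Kcnd3 led the Kcnd genes and Kcnj11, the pore of the ATP-sensitive channel, led the Kcnj genes at 7.94 ± 0.724. The places of Kcnj11 and Kcnq3 hold for the treated experiment only. In the untreated controls Kcnj11 was at 2.52 CPM per kb, below Kcnj3 at 7.11, and Kcnq3 was at 2.3. At the other end, Kcnk15 had no count in any WT vehicle library.

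Untreated dcKO and control pallium were compared first. With all 7 libraries no channel gene passed an adjusted p of 0.05 by edgeR's quasi-likelihood test, and 1 of all 15770 genes did (0.00634%). At an unadjusted p under 0.01, 3 of 96 channel genes were higher and 5 lower, beside 2.66% and 2.8% of all genes. The lower ones included the ether-a-go-go channel Kcnh5, Kcna6, the R-type calcium channel Cacna1e and the L-type calcium channel Cacna1d, with log2 differences of -0.76, -0.37, -0.52 and -0.27 (adjusted p 0.115 to 0.177 by edgeR). The higher ones were Kcng3, a silent subunit that modifies other voltage-gated channels, Kcnab1, a cytoplasmic beta subunit, and Kcnn2, a calcium-activated channel, with log2 differences of 1.40, 0.38 and 0.33. The DESeq2 Wald test put 2 channel genes above and 3 below control past the same adjusted limit, beside 1.63% and 1.89% of all genes.

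With the library labelled dcKO replicate 2 left out, 9 of 97 channel genes rose and 14 fell at an adjusted p under 0.05 (edgeR), beside 5.57% and 6.88% of all genes. Kcnj10 (chr1:172341210-172374085), the inward rectifier Kir4.1 of glial cells, was 33.7, 31.8, 32.2 and 33.7 CPM in the controls, 10.04 and 10.5 CPM in dcKO replicates 3 and 4, and 31.8 CPM in replicate 2. The 2 libraries with low Smarcc1 lay far below every control and replicate 2 lay among the controls. Without replicate 2 its log2 difference was -1.68 ± 0.0872 (SE, edgeR adjusted p 4.64e-06), and with it -0.96 ± 0.403 (edgeR adjusted p 0.308).

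Among the voltage-gated potassium channels the Kv1 genes divided. Kcna2 (chr3:107101146-107115005) was 6.34, 7.22, 5.835 and 7.998 CPM in the controls against 4.79, 15.1 and 15.2 CPM in dcKO replicates 2, 3 and 4. Kcna3 was 10.7 to 12.9 CPM in the controls and 10.7, 24.5 and 23.3 CPM in dcKO. Kcna1 went the other way, from 17.54 to 24.8 CPM in the controls to 21.8, 8.60 and 9.94 CPM. Replicate 2 lay within the control range for Kcna1, at its lower end for Kcna3 and just below it for Kcna2, and for all 3 genes replicates 3 and 4 lay outside the control range. Without replicate 2, Kcna2 rose by 1.15 ± 0.133 and Kcna3 by 0.99 ± 0.0969 on the log2 scale, and Kcna1 fell by 1.16 ± 0.143 (SE; edgeR adjusted p under 0.001 for each). Kcng3 (chr17:83585957-83631895) was 0.798, 1.02, 1.17 and 0.904 CPM in the controls and 1.09, 3.41 and 2.95 CPM in dcKO, a rise of 1.69 ± 0.215 without replicate 2.

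The remaining genes that rose without replicate 2 were the sodium channels Scn1a (log2 difference 0.52) and Scn3a (0.31), and Kcnn2, Kcnh4, Kcnab1 and Kcnq3 (0.42, 0.64, 0.44 and 0.48). Those that fell included 4 leak-type 2-pore channels (Kcnk5, Kcnk1, Kcnk3 and Kcnk10, from -1.65 to -0.41), the Kv4 partners Kcnip3 and Kcnip2 (-0.70 and -0.59), the inward rectifier Kcnj2 (-0.77), and Cacna1e, Cacna1d, Kcnh5 and Kcna6 (-0.82 to -0.35). The median over the 97 genes was -0.05, beside 0.00 over all genes, and 59.8% of them were lower, beside 50.1% of all genes. Scn8a and Cacna1g did not pass the test in either fit. Markers of cell types moved with this comparison: without replicate 2, 3 of 11 general neuronal markers and 4 of 9 of excitatory cortical neurons passed downward, 5 of 9 of GABAergic interneurons passed upward, and of 9 radial glia markers 4 passed upward and 2 downward. Of other lists, 1 of 5 intermediate progenitor and 1 of 7 endothelial markers passed downward. Upward passed 1 of 5 oligodendrocyte precursor, 1 of 6 pericyte and 1 of 7 microglia markers. Summed CPM of the excitatory markers was 1703 and 1872 in dcKO replicates 3 and 4 and 2973 in replicate 2. In bulk tissue, fewer cells of a type and less RNA per cell cannot be told apart, and the part of cell makeup in these results was not tested.

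**Figure D1:**
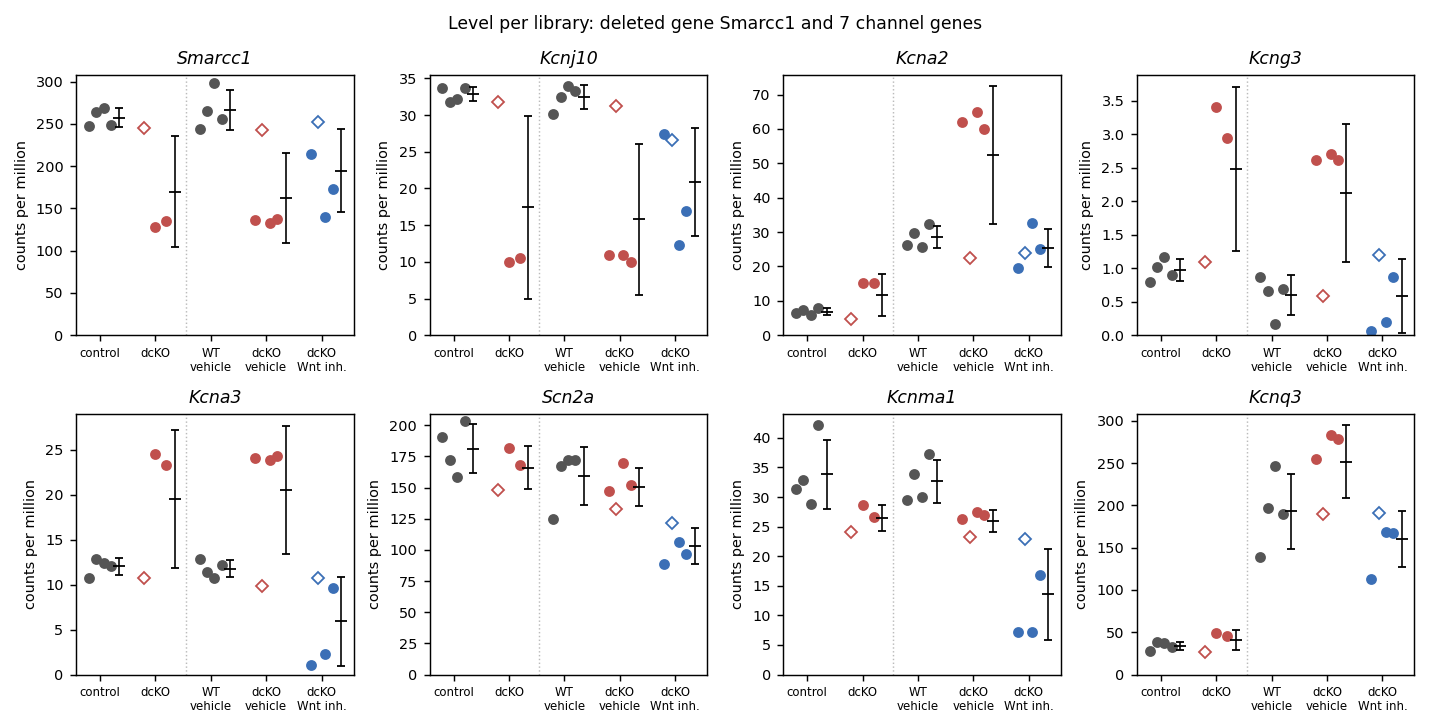
CPM (y axes from 0) of Smarcc1 and 7 channel genes in every RNA library, by group. Points are libraries, open diamonds are the libraries labelled dcKO replicate 2, and black bars are the group mean ± SD. Kcnj10 lies at about 10 CPM in the dcKO libraries with low Smarcc1 and near 32 CPM in controls, WT and the open diamonds of the untreated and vehicle groups, and Kcnma1 is lowest with the Wnt inhibitor.

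The vehicle-treated dcKO was set against vehicle-treated WT as the second comparison of genotype. With all libraries no channel gene passed an adjusted p of 0.05, beside 0.00611% of 16372 genes. Past an unadjusted p of 0.01 were Kcna2 and Kcnn2 above WT and Kcna4, Kcnj16 and Kcnj10 below it, 2 and 3 of 97 genes beside 1.56% and 1.29% of all genes. Kcnj10 was 30.1, 32.4, 33.9 and 33.2 CPM in WT vehicle and 10.9, 31.3, 10.98 and 9.98 CPM in the 4 libraries labelled dcKO vehicle. Kcna2 was 26.3, 29.7, 25.6 and 32.4 CPM in WT and 62.1, 22.5, 64.97 and 60.1 CPM in dcKO vehicle. Replicate 2 lay within the WT range for Kcnj10 and just below it for Kcna2, and the other 3 dcKO libraries did not overlap WT.

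Without the libraries labelled dcKO replicate 2, 2 channel genes rose and 7 fell (edgeR, adjusted p under 0.05), beside 1.57% and 2.36% of all 16547 genes. Kcna2 rose by 1.13 ± 0.154 and Kcng3 by 2.05 ± 0.485 on the log2 scale. Kcnj10 fell by 1.61 ± 0.218 (edgeR adjusted p 0.00458), Kcnk5 by 1.58 ± 0.306, Kcna1 by 1.07 ± 0.256, Kcnip3 by 0.78 ± 0.188, Kcnj2 by 0.67 ± 0.157, Cacna1e by 0.66 ± 0.143 and Kcnk1 by 0.64 ± 0.15. Scn1a, Scn3a and Kcnq3 did not pass here. The sodium channels Scn2a and Scn8a were at 159 ± 22.9 and 129 ± 8.81 CPM in WT (SD, n = 4), and neither passed the test. Of the excitatory neuron markers 3 of 9 and of the radial glia markers 2 of 9 were lower in the same fit. Also lower were 1 of 5 intermediate progenitor and 1 of 7 endothelial markers, while 1 of 5 oligodendrocyte precursor markers was higher.

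The difference of the genotype effect between the 2 experiments was also fitted, with 15 libraries. No channel gene passed an adjusted p of 0.05 or an unadjusted p under 0.01 (edgeR), beside 0.0% and 0.0938% of 15999 genes. DESeq2 called 0 genes as well. This fit takes the libraries as independent although same-numbered ones deviated together, and it does not show that the effects were equal.

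The Wnt inhibitor was compared with vehicle in the dcKO. With all libraries no channel gene passed an adjusted p of 0.05, beside 0.055% of all genes. At an unadjusted p under 0.01, 1 of 97 was higher and 6 lower, beside 2.44% and 2.2% of all genes. Scn2a (chr2:65620771-65767447), a sodium channel of young excitatory neurons, was 147, 133, 169 and 152 CPM with vehicle and 88.4, 122, 106 and 96.7 CPM with the inhibitor, so that the groups did not overlap. Its log2 difference was -0.54 ± 0.128 (SE, edgeR adjusted p 0.149). The large-conductance calcium-activated channel Kcnma1 (chr14:23289431-24014491) was 26.3, 23.3, 27.4 and 27.04 CPM with vehicle and 7.24, 22.9, 7.24 and 16.9 CPM with the inhibitor. Its groups did not overlap either, and inhibitor replicates 1 and 3 were lowest. Kcna3 was 24.1, 9.89, 23.9 and 24.3 CPM with vehicle and 1.02, 10.7, 2.33 and 9.645 CPM with the inhibitor, and replicate 2 lay near 10 CPM under both treatments.

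Without the libraries labelled dcKO replicate 2, 13 of 97 channel genes fell with the inhibitor and 0 rose (edgeR, adjusted p under 0.05), beside 3.72% and 2.37% of all genes, respectively. Of the 97, 77 (79.4%) had a negative log2 difference, beside 47.2% of all genes. The 13 included the sodium channel subunits Scn2a (-0.69 ± 0.133) and Scn3b (-0.40 ± 0.0931), the Kv1 genes Kcna2 (-1.28 ± 0.169) and Kcna3 (-2.43 ± 0.523), Kcnb2 (-0.82), Kcng3 (-2.66), and the Kv4 gene Kcnd2 (-0.67). The M-current subunit Kcnq3 (-0.87), Kcnma1 (-1.35 ± 0.273), the inward rectifiers Kcnj6 and Kcnj5 (-1.80 and -0.79), which form G protein-gated channels, and the 2-pore channel Kcnk9 (-1.65) fell as well. With the inhibitor Kcna2 was 19.4, 24.1, 32.7 and 25.03 CPM, which overlapped WT vehicle and lay below dcKO vehicle replicates 1, 3 and 4. In the same fit 1 of 11 general neuronal markers was lower, and 2 of 9 excitatory neuron and 3 of 9 radial glia markers were higher. Also higher were 1 of 9 interneuron, 1 of 5 intermediate progenitor and 1 of 8 choroid plexus markers. Smarcc1 was higher in inhibitor replicates 1 and 4 than in the dcKO vehicle libraries other than replicate 2, and the part of this and of the markers in these differences was not tested.

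DESeq2 called 1 channel gene higher and 2 lower with all libraries, beside 1.06% and 1.01% of all genes. Kcne2, a beta subunit that epithelia use, was the only channel gene higher at an unadjusted p under 0.01, at 8.61, 2.35, 8.65 and 0.08 CPM with the inhibitor against 0.496, 0.134, 0.479 and 0.28 CPM with vehicle (edgeR adjusted p 0.164). Choroid plexus markers moved with it: the summed level of the 8 genes, Ttr among them, was 874, 178, 505 and 24.9 CPM in the inhibitor libraries and 17.6 to 25.1 CPM with vehicle. In WT vehicle replicate 4, where these markers reached 149 CPM, Kcne2 was 2.56 CPM, and in the other WT libraries it was at most 0.461 CPM. The part of choroid plexus tissue in the Kcne2 values was not tested.

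Inhibitor-treated dcKO cortex was last compared with WT vehicle. Genotype and inhibitor differ together in this comparison, so their parts in it cannot be told apart. No WT library with the inhibitor was in the series. The inhibitor replicate 1 library, which both fits below keep, had Smarcc1 at 214 CPM, Smarcc2 at 644 CPM and Kcnj10 at 27.4 CPM, nearer to WT than to dcKO vehicle replicates 1, 3 and 4. Without the libraries labelled dcKO replicate 2, Smarcc1 was lower than in WT vehicle (edgeR adjusted p 0.0193) and Smarcc2 did not pass (edgeR adjusted p 0.0776). With all libraries no channel gene passed an adjusted p of 0.05, beside 0.0977% of all genes, and at an unadjusted p under 0.01, 1 was higher and 11 lower, beside 3.01% and 3.71% of all genes. Scn2a came nearest (-0.62 ± 0.128, edgeR adjusted p 0.0667), with 125, 167, 173 and 172 CPM in WT against 88.4 to 122 CPM. Cacna1d, Kcnh5, Kcnma1, the L-type channel Cacna1c, Kcna4, Kcnq5, Kcnb2, Scn3b, Kcnv1 and Kcnj6 were the other lower genes, from -1.43 for Kcnh5 to -0.32 for Scn3b. Scn10a, a sodium channel of sensory neurons, was the higher one, at 0.359 to 1.615 CPM with the inhibitor against 0 to 0.387 CPM in WT vehicle, and these groups overlapped. DESeq2 called 9 channel genes lower and 1 higher, beside 2.69% and 2.01% of all genes.

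Without the libraries labelled dcKO replicate 2, 21 of 97 channel genes were lower than in WT vehicle and 0 higher (edgeR, adjusted p under 0.05), beside 6.3% and 3.92% of all genes. The log2 difference was negative for 86 of 97 (88.7%), beside 49.2% of all genes, and the median was -0.30 beside 0.01. The calcium channels Cacna1c (-0.50 ± 0.0857), Cacna1d (-0.56 ± 0.104), Cacna1e (-0.68 ± 0.143) and Cacna1i (-0.49 ± 0.139) were lower, 4 of 9 tested. Of the sodium channels Scn2a (-0.72 ± 0.126) and Scn3b (-0.39 ± 0.0877) were lower. Kcnb2 (-0.94 ± 0.2) was lower, as were Kcna1 and Kcna4, Kcnd3, Kcnh5 (-1.78 ± 0.301), Kcnq5, Kcnv1, Kcnn3 and Kcnma1 (-1.63 ± 0.263). Kcnj6 and Kcnj10 (-1.87 and -0.78) and the 2-pore genes Kcnk9, Kcnk5 and Kcnk10 (-1.61, -1.23 and -0.52) were also among the 21.

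The widely expressed genes Scn8a, Cacna1a and Cacna1b had log2 differences of -0.28, -0.42 and -0.40 and did not pass the test (edgeR adjusted p 0.0553 to 0.0779). Markers of cell types moved too: 1 of 11 general neuronal markers and 1 of 9 excitatory markers were lower, and 2 of 9 interneuron, 1 of 9 radial glia and 1 of 5 intermediate progenitor markers higher. Of other cells, 2 of 7 endothelial markers were lower and 1 of 8 choroid plexus markers higher, the median of the latter list being 1.99 on the log2 scale. Summed general neuronal markers were 8444, 9190, 8192 and 7637 CPM with the inhibitor and 8625 to 10400 CPM in WT vehicle. Their part in the lower channel levels was not tested.

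**Figure D2:**
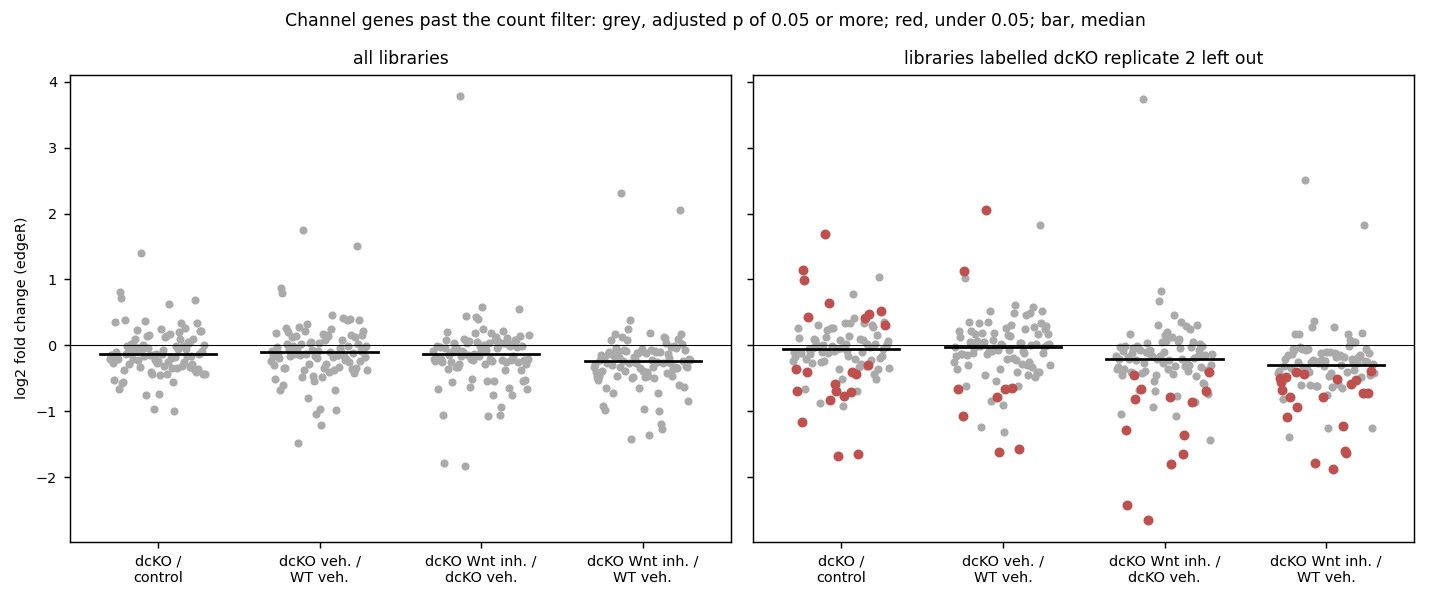
Log2 fold change (edgeR, y axis) of each channel gene past the count filter in the 4 RNA comparisons, with all libraries (left) and with the libraries labelled dcKO replicate 2 left out (right). Points are genes, red where the adjusted p was under 0.05, and bars are medians. No point is red on the left, and on the right all 21 red points of the Wnt inhibitor against WT vehicle and all 13 against dcKO vehicle lie below 0.

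Genes listed by name as partners of these channels were tested in the same fits, and whether each acts on them in this tissue was not tested. With all libraries, none of 16 calcium channel auxiliary subunits, 7 HCN and leak channel genes and 17 sodium and potassium channel partners, some of them under the count filter, passed an adjusted p of 0.05 in any of the 4 comparisons (edgeR). Without the libraries labelled dcKO replicate 2, Cacng5, listed with the gamma subunits by its symbol, was higher in untreated dcKO (1.95 ± 0.0927) and in dcKO vehicle (1.94 ± 0.308). It was also higher with the inhibitor against WT vehicle (1.08 ± 0.308). Cntnap2, which clusters Kv1 channels on axons, was higher in untreated dcKO (1.11 ± 0.0747) and dcKO vehicle (1.11) in the same fits. In untreated dcKO Cacng7 was also higher, and Cacna2d3 and Lrrc55 lower. With the inhibitor against dcKO vehicle the sodium leak channel Nalcn and its partners Unc79 and Unc80 fell (-0.74, -0.39 and -0.82), as did the ankyrins Ank2 and Ank3, which hold sodium channels at the axon (-0.50 and -0.72). Against WT vehicle Ank2 and Ank3 were lower by -0.71 and -0.88.

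H3K27me3 lay at the starts of most channel genes. A region, built from merged peaks with a peak in at least 2 of 8 libraries, lay within 2000 bp of an annotated start in 81 of 115 channel genes (70.4%), beside 5594 of 21695 protein-coding genes (25.8%). In 16 channel genes (13.9%) a region at a start had a peak in all 8 libraries, beside 4.17% of protein-coding genes. Among them were the beta subunit Scn4b, Kcna7, Kcnh3, Cacna1i, 4 Kcnj genes (Kcnj4, Kcnj5, Kcnj8 and Kcnj12) and 7 Kcnk genes (Kcnk1, Kcnk3, Kcnk4, Kcnk6, Kcnk9, Kcnk12 and Kcnk15). All 3 Kcns, 4 Kcng, 4 Kcnc and 4 Kcnip genes had a region at a start, and 5 of 10 Scn alpha genes did. The Kcnj4 region (chr15:79501612-79518085) had fold enrichments of 11.06, 5.216, 5.898 and 4.557 in the controls and 10.25, 7.517, 4.732 and 7.022 in dcKO, and the groups overlapped. The longest region (32055 bp, chr7:143354821-143386875) lay inside Kcnq1.

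**Figure D3:**
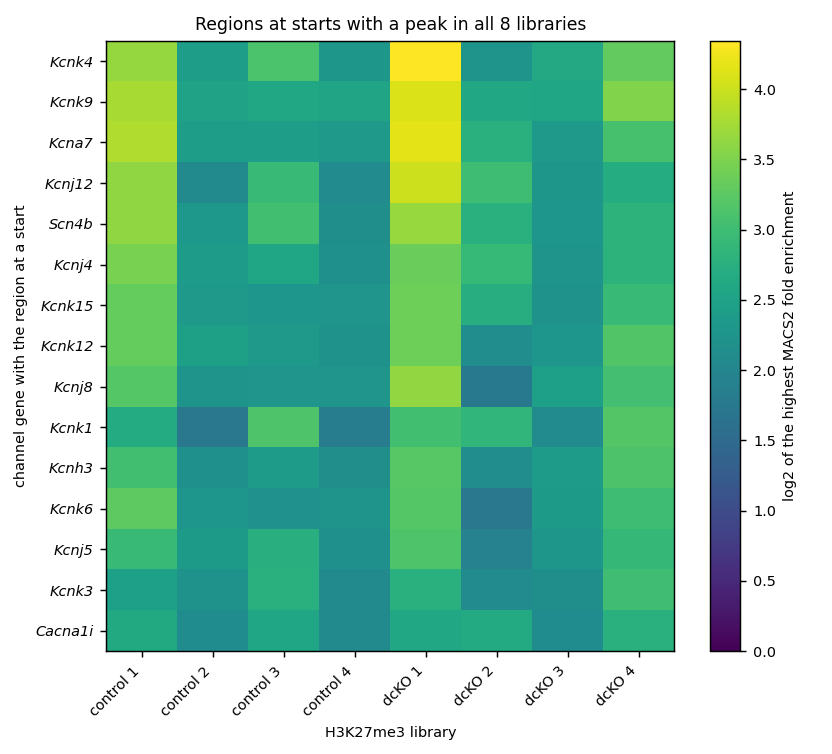
Log2 of the highest MACS2 fold enrichment (colour) in 15 of the regions at channel gene starts that had a peak in all 8 H3K27me3 libraries (rows, by mean value; columns, libraries). The brightest cell of most rows is dcKO replicate 1, and the 2 groups overlap in every row.

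Genes with and without H3K27me3 at a start covered a wide span of levels. The median level per length in WT vehicle was 1.24 CPM per kb for the 16 genes with a peak in all 8 libraries, 3.6 for the 65 with 2 to 7 libraries and 0.849 for the 34 with no region. The 34 held genes at the top, Scn3b, Scn3a, Kcnq3, Scn2a, Kcnd2 and Kcnj11 at 7.94 to 58.1 CPM per kb, and 11 genes that did not pass the count filter. Of these, Kcnq3 and Kcnj11 were not at the top in the untreated controls, at 2.3 and 2.52 CPM per kb. In WT vehicle no gene with a peak in all 8 libraries exceeded 9.41 CPM per kb (Kcnk1). Of the 14 genes lower and 9 higher in untreated dcKO without replicate 2, 12 and 7 had a region at a start, beside 76.3% of the genes tested. This status pools control and dcKO libraries. The start regions of Kcna3 and Kcnab1, which rose, and Kcnip2, which fell, had peaks in 2 dcKO and 0 control libraries. Kcng3, with 4 control and 3 dcKO libraries under a peak at its start, and Kcna2, with 3 and 2, were among those that rose.

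**Figure D4:**
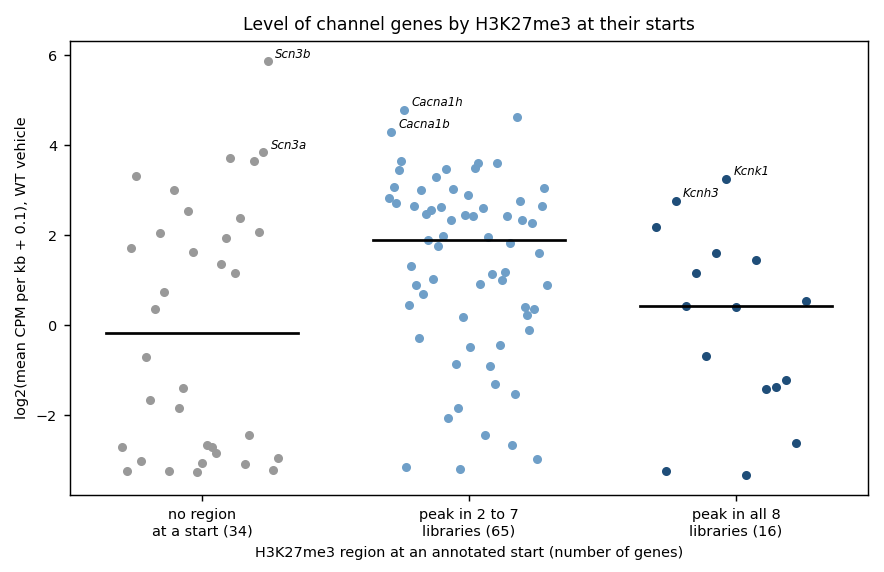
Level of each channel gene in WT vehicle (log2 of mean CPM per kb + 0.1, y axis) by H3K27me3 at its starts: 34 genes with no region, 65 with a peak in 2 to 7 libraries and 16 with a peak in all 8. Points are genes and bars are medians, and the levels of the 3 classes overlap, with Scn3b highest among the genes with no region.

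Between dcKO and control, no H3K27me3 region at a channel gene passed the test, which does not show that the groups were alike. Of 177 regions at 88 genes, 0 passed an adjusted p of 0.05 (limma), as did 0.0% of all 22220 regions, and 0 passed an unadjusted p under 0.01, beside 0.009% of all regions. No channel gene region passed an unadjusted p under 0.05 either (limma), and only 49 of all 22220 regions did. The region with the smallest p lay inside Kcnk13 (chr12:99971062-99973022). It had no peak in the controls and fold enrichments of 4.13, 4.045 and 3.26 in dcKO replicates 1, 2 and 4. Its adjusted p was 1 by limma. Regions in Kcnip1, Kcnab1, Kcnh4 and Kcnip2 were the next higher in dcKO, each with peaks in 2 or 3 dcKO libraries. Kcnip1 also had peaks in 2 controls. Those in Kcnab1, Kcnh4 and Kcnip2, like that in Kcnk13, had 0 control peaks. They were kept through dcKO libraries alone, so their direction was fixed by the rule of 2 libraries. Those lower in dcKO with the smallest p lay in Kcnip1, Cacna1b, Kcnj1, Kcnk9 and Kcnma1 (limma adjusted p 1 for each). All but the Kcnma1 region had peaks in 2 controls and 0 dcKO libraries, so their direction was fixed in the same way. The Kcng3 region at the start had fold enrichments of 14.2, 4.84, 5.20 and 4.65 in the controls and of 16.3, 5.13 and 8.98 in dcKO replicates 1, 3 and 4, with no peak in replicate 2.

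The libraries limited this comparison. Between 12.3% and 66.5% of tags were kept after duplicates were removed, and the 8 libraries held 6674 to 46000 peaks, with peaks in 30 to 154 of the 177 channel gene regions. The mean was higher in dcKO in 62.1% of the 177 regions and in 59.8% of all regions, but leaving out 1 library at a time moved the share for channel genes from 46.2% (without control replicate 3) to 86.2% (without dcKO replicate 2), beside 41.6% and 76.4% of all regions. Among the 2 control and 2 dcKO libraries with under 20% of tags kept it was 33.9%, beside 35.5% of all regions, and among the other 4 it was 80.2%, beside 58.3%. A region with no peak in any library of a class had a difference of 0 and counted as not higher, so the remainder were not all lower. The median log2 difference was 0 for channel gene regions and for all regions in the first class, and 0.419 and 0.14 in the second.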

How the data were processed

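RNA and H3K27me3 libraries of E17.5 mouse pallium were analysed from the deposited files. Per the labels and methods, the authors aligned RNA reads with STAR (v2.3.0) and deposited raw counts per gene from featureCounts, from a kit that does not mark strand. The authors called broad H3K27me3 peaks with MACS (2.1.0.20140616) on mm10 at q 0.1 for each library against the pooled input of its group, with 1 tag per position; the deposited fold enrichment (a ratio), pileup signal and −log10 q-values were used. Counts were tested with edgeR 4.0.16 (R 4.3.3; TMM, filterByExpr, robust quasi-likelihood), with Benjamini-Hochberg adjustment over all genes, the untreated table by itself and the 12 treated libraries together. DESeq2 1.42.0 and other settings were alternatives. CPM uses the TMM library sizes, and CPM per kb divides by the exon length in the mouse GENCODE release M21. Peaks sharing 1 bp were merged, merged regions found in 2 or more libraries were kept, and the highest fold enrichment in each (1 with no peak) was tested as log2 with limma 3.58.1. Fits were tested on simulated data. Named genes were the 5 per direction and comparison with the smallest p (or up to 10 past a threshold), the highest per subfamily and 16 common channel genes; genes named because they passed without the libraries labelled dcKO replicate 2 were chosen after their values were seen. A few genes are not reported here. The genes and lists were chosen with earlier results of these data known. The labels do not say whether replicates were separate litters, so p-values cover the spread between these libraries. Replicate numbers were not used to pair libraries within an experiment except in the replicate block. Whether they mark pairs was not settled.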

Additional observations from a re-analysis of the deposited data

Results flagged for a closer look

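In 199 groups of 4 libraries, 12 named levels had 1 library far from the other 3 by Dixon's test, where chance alone gives about 1 in 20. The library labelled dcKO vehicle replicate 2 accounted for 5 of them: Kcna2 at 22.5 CPM (others 60.1 to 64.97), Kcna3 at 9.89 (23.9 to 24.3), Kcng3 at 0.579 (2.61 to 2.70), Kcnk9 at 2.18 (4.10 to 4.38) and Kcnj10 at 31.3 (9.98 to 10.98). WT vehicle replicate 4 was high for Kcne2 at 2.56 CPM and for Kcnj16 at 1.24 CPM. WT vehicle replicate 1 was low for Scn2a at 125 CPM. Kcna4 was 5.14 CPM in dcKO vehicle replicate 1, and Kcnip1 was 27.4 CPM in untreated control replicate 3. With the Wnt inhibitor, Scn1a was 20.9 CPM in replicate 1 (others 36.1 to 38.2) and Kcnq1 was 0.438 CPM in replicate 4 (others 1.09 to 1.20).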

How the results depend on the processing

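With all libraries, no channel gene passed an adjusted p of 0.05 by edgeR in any comparison, and DESeq2 size factors or a fit of only the 2 groups compared also gave 0. DESeq2's Wald test called 2 higher and 3 lower in untreated dcKO, 1 and 2 for the inhibitor against dcKO vehicle, and 1 and 9 against WT vehicle, beside the shares of all genes given with those comparisons. Without the count filter, 1 of 114 was higher in untreated dcKO, beside 88 of all 26057 genes. In that setting 2 of 115 were lower for the inhibitor against WT vehicle, beside 32 of all 31309 genes. Leaving out 1 library at a time gave 0 to 9 higher and 0 to 14 lower in untreated dcKO, 0 to 1 and 0 to 5 in dcKO vehicle, and, for the inhibitor, 0 to 2 lower against dcKO vehicle and 0 to 16 against WT vehicle; the highest counts came without the library labelled dcKO replicate 2 of the group. Beside those highest counts, 892 of all 16024 genes were higher and 1102 lower in untreated dcKO, and 222 and 340 of 16526 in dcKO vehicle. For the inhibitor, 277 of all 16621 genes were lower against dcKO vehicle and 890 against WT vehicle. Without WT vehicle replicate 1, 2 of 97 were lower for the inhibitor against WT vehicle, beside 86 of all 16631 genes. Without both treated libraries labelled dcKO replicate 2, a choice made after seeing the data, the counts were 2 higher and 7 lower, 13 lower, and 21 lower. The shares of all genes are given with those comparisons. The cause was not tested. A replicate block called 3 of 97 lower for the inhibitor against WT vehicle, beside 125 of all 16372 genes, and 0 in the other comparisons. Same-numbered libraries correlated at -0.311 to -0.033 (untreated) and -0.176 to 0.403 (treated) in their deviations. Libraries of different number correlated at -0.148 to 0.232 and -0.375 to 0.24. These ranges overlap and do not settle whether the numbers pair libraries. Of 1482 alternative values of 91 named fold changes, 1417 kept their side of the threshold and 65 newly passed it. None was past the threshold with all libraries, so no call could be lost, and 35 of these values, of 13 named fold changes, had the other sign with no call in either fit. Counts at an unadjusted p under 0.01 ranged over the alternatives from 0 to 10 higher and 1 to 16 lower (3 and 5 with all libraries) in untreated dcKO, 0 to 3 and 0 to 10 (2 and 3) in dcKO vehicle, and, for the inhibitor, 0 to 3 and 2 to 20 (1 and 6) against dcKO vehicle and 0 to 2 and 5 to 26 (1 and 11) against WT vehicle. Over all genes these ranges were 131 to 1055 higher and 119 to 1291 lower in untreated dcKO, and 129 to 516 and 60 to 755 in dcKO vehicle. For the inhibitor they were 213 to 858 and 158 to 1082 against dcKO vehicle, and 282 to 967 and 236 to 1358 against WT vehicle. No H3K27me3 alternative called a channel gene region at an adjusted p of 0.05 by limma. Without dcKO replicate 2, 1 passed an unadjusted p of 0.01, beside 14 of all 20948 regions.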

Other observations

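A list of 6 spermatid genes also divided the libraries labelled dcKO, but only Prm1 of them passed the count filter, so no cell type can be read from it. Their summed level was 29.2 and 26.2 CPM in untreated dcKO replicates 3 and 4 and 28.2 to 30.9 CPM in dcKO vehicle replicates 1, 3 and 4. In the untreated controls it was 0.042 to 0.177 CPM. It was 2.60 and 2.54 CPM in the 2 libraries labelled dcKO replicate 2, 2.87, 2.93, 12.3 and 8.21 CPM with the inhibitor, and at most 0.331 CPM in WT vehicle. In the inhibitor libraries Kcnj10 was 27.4, 26.6, 12.3 and 16.98 CPM in the same order.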
